A study of Mus musculus with 15 samples.

Results

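The 10 genes described here code for proteins of epithelial cell junctions, and were taken by symbol from the 24054 genes of a whole-lung RNA-seq count table. They were the claudins Cldn1, Cldn3, Cldn4, Cldn7, Cldn10 and Cldn18, the tight junction proteins Ocln, F11r and Tjp1, and the adherens junction protein Cdh1. Lungs came from 15 female wild-type Balb mice in 3 groups of 5, all given an antibody. The saline group was sham-sensitised with saline and received an isotype control. The OVA group was sensitised to ovalbumin (OVA), which serves as the allergen, through the peritoneum, challenged with it as a nebulised mist, and given the isotype control. The anti-IL-4Ra group had the same allergen treatment and a monoclonal antibody at 30 mg/kg against mouse IL-4Ra, the receptor chain shared by IL-4 and IL-13. The labels read here state no ages, dosing times or day of tissue collection. The groups address how allergen exposure changed the lung, and whether blocking this receptor altered that response.

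Tight junctions seal the space between neighbouring epithelial cells near their apical side. Claudins form the paracellular strands and set which ions pass, occludin and junctional adhesion molecules lie in the same strands, and zonula occludens proteins tie them to actin. E-cadherin, the product of Cdh1, holds cells together at the adherens junction below. In the lung, claudin-18 is the major claudin of the alveolar epithelium, claudin-3 and claudin-4 are found in alveolar type 2 cells and airways, and barrier loss is a known feature of allergic airways. Tjp1 and F11r are also made by endothelial cells, so Epcam, an adhesion protein of epithelial cells, and Cdh5 and Cldn5, the cadherin and claudin of endothelial junctions, were followed as references.

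Saline libraries summed to 16774300 to 27570700 expected counts, OVA libraries to 10042800 to 14706100, and anti-IL-4Ra libraries to 12317800 to 16914500. All 10 genes had counts in every library and passed the filter on low counts, and their lowest level was 2.13 CPM (counts set to a common library total, here with TMM factors), against 0.109 to 0.299 CPM for a floor of 3 counts. The share of counts on Rn45s, a ribosomal RNA precursor, was 1.19 to 2.88% in saline, 4.31 to 12.4% in OVA and 1.65 to 12.4% in anti-IL-4Ra libraries. Summed markers of resident cells also moved with the groups. Alveolar type 1 markers summed to 5546 to 7549 CPM in saline, 1675 to 3754 in OVA and 2088 to 4567 in anti-IL-4Ra libraries, and none of the 10 was at 0. Endothelial markers summed to 5504 to 7373, 2116 to 4328 and 2107 to 4913 CPM, with none of 14 at 0. Alternatively activated macrophage genes summed to 300 to 365 CPM in saline, 7732 to 12840 in OVA and 1721 to 8937 in anti-IL-4Ra libraries. CPM is relative to the library total. In whole lung, fewer cells of a type, less RNA per cell and more RNA from other cells cannot therefore be told apart.

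Per kilobase of exon, the most abundant of the 10 genes in saline lungs was Cldn18, at 154 ± 27.2 CPM per kb (SD, n = 5). Tjp1 at 102 ± 11.3 and Cdh1 at 90.7 ± 26.4 came next and lay within each other's spread. F11r stood at 66.8 ± 5.92 and Cldn3 at 52.4 ± 11.4 CPM per kb. Ranges of mean ± SD show the spread between animals and do not test genes measured in the same libraries. Below Cldn3 these ranges overlapped for Cldn7 at 17.8 ± 4.9 and Ocln at 17 ± 3.31. They also overlapped for Cldn1 at 3.25 ± 0.754 and Cldn4 at 2.02 ± 0.82, while Cldn10 lay between at 7.81 ± 2.36. Levels among the 6 claudins therefore spanned from a dominant Cldn18 to scarce Cldn1 and Cldn4. With OVA, Cldn18, Cdh1 and Tjp1 had come within their spread of each other, at 58.8 ± 24.8, 56.4 ± 20.8 and 54.5 ± 15.3 CPM per kb, and the remaining 7 genes kept their order.

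OVA against saline. Scaled counts were lower in OVA lungs for 5 of the 10 genes: Cldn18, Ocln, Tjp1, Cldn3 and F11r fell by 0.64 to 1.39 on the log2 scale, and none rose. Such counts are relative to the library and do not give an amount of RNA per lung. Cdh1, Cldn10 and Cldn7 had lower means that did not pass the test, and the scarce Cldn1 and Cldn4 had nearly equal means in both groups. Calls rest on edgeR's quasi-likelihood test with p adjusted over the 15905 genes tested and a threshold of 0.05. In that comparison 17.8% of all genes were called lower and 19.3% higher, and the median log2 change was -0.68 over the 10 genes and 0.02 over all genes.

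The alveolar claudin Cldn18 had the largest difference. Its level was 670, 822, 585, 553 and 796 CPM in saline libraries 1 to 5 and 223, 149, 311, 429 and 197 CPM in OVA libraries 1 to 5. Every OVA library lay below every saline library. The log2 change was -1.39 ± 0.31 (SE), 2.62-fold lower, with an adjusted p of 0.0031 in edgeR.

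Ocln, which codes for occludin, a membrane protein of tight junction strands, was at 67.5, 91.9, 58.7, 60.7 and 79.6 CPM in the saline libraries and at 33, 27, 39.2, 48.1 and 34.9 CPM in the OVA libraries. The groups did not overlap, and the fall was 1.96-fold (log2 -0.97 ± 0.24, edgeR adjusted p 0.0052). Tjp1, the ZO-1 scaffold that links strand proteins to actin, was at 801, 791, 666, 620 and 757 CPM with saline and at 345, 240, 438, 533 and 382 CPM with OVA. These groups were also separate, with a 1.88-fold fall (log2 -0.91 ± 0.23, edgeR adjusted p 0.0061). F11r, the junctional adhesion molecule A gene, was at 157, 186, 170, 150 and 178 CPM with saline and at 86.9, 80.6, 136, 122 and 114 CPM with OVA. All 5 OVA libraries were below the lowest saline library, and the 1.56-fold fall (log2 -0.64 ± 0.16) had an edgeR adjusted p of 0.0057.

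Cldn3, a sealing claudin of alveolar type 2 and airway cells, was at 51, 87.7, 68.9, 55.1 and 67.4 CPM with saline and at 24.3, 27.3, 64.1, 40.1 and 28.6 CPM with OVA. OVA library 3 lay inside the saline range and the other 4 lay below it. The log2 change was -0.84 ± 0.24, with an edgeR adjusted p of 0.012. In all, 4 of the 10 genes (Cldn18, Ocln, Tjp1 and F11r) had all OVA libraries below all saline libraries, as did 14.5% of all genes tested.

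**Figure D1:**
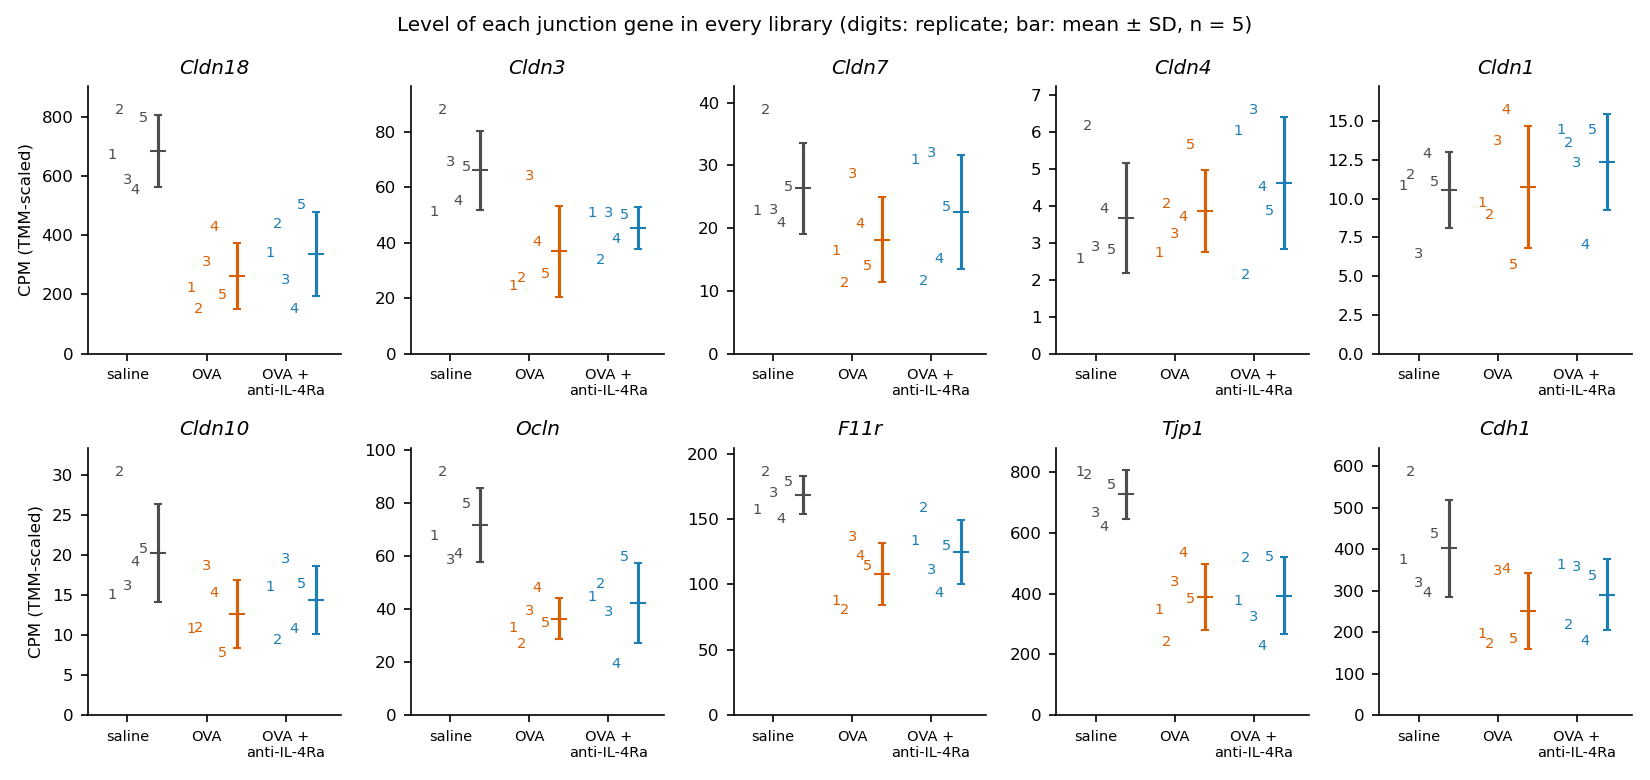
Level of each of the 10 genes in CPM on a linear axis from 0, by group. Digits are the replicate numbers of single libraries and bars are the mean ± SD of 5. Saline libraries stand clear of OVA libraries for Cldn18, Ocln, Tjp1 and F11r, whereas Cldn1 and Cldn4 overlap in all 3 groups.

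Cdh1, coding for E-cadherin, was at 373, 586, 317, 295 and 437 CPM with saline and at 196, 170, 347, 353 and 184 CPM with OVA. OVA libraries 3 and 4 lay within the saline range, and the log2 change of -0.68 ± 0.27 had an edgeR adjusted p of 0.055. Cldn10, a channel-forming claudin, was at 15 to 30.4 CPM with saline and 7.69 to 18.6 CPM with OVA (log2 -0.68 ± 0.26, adjusted p 0.053). Cldn7, a widespread epithelial claudin that can bind the Epcam protein, was at 20.9 to 38.8 and 11.2 to 28.6 CPM (log2 -0.53 ± 0.29, adjusted p 0.17). For these genes 3 or 4 of the 5 OVA libraries were below every saline library. OVA library 3 held the highest OVA level of Cldn3, Cldn7, Cldn10 and F11r, so leaving it out lowers their OVA means. Without that library Cldn7, Cldn10 and Cdh1 were called too, making 8 of 10. That was the most among fits that left out 1 replicate (5 to 8). In it 3377 of 16022 genes were called lower, against 2829 of 15905 with all libraries.

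Cldn4, a claudin that raises the barrier to sodium and is known to rise in injured alveolar epithelium, was at 2.56, 6.16, 2.88, 3.92 and 2.81 CPM with saline and at 2.73, 4.05, 3.24, 3.69 and 5.64 CPM with OVA. The OVA libraries lay within the saline range. Its log2 change of 0.07 ± 0.31 leaves a range of -0.55 to 0.69 at 2 SE on either side (edgeR adjusted p 0.89). Cldn1, a sealing claudin of airway epithelium, ran from 6.41 to 12.9 CPM with saline and from 5.74 to 15.7 CPM with OVA, a log2 change of 0.03 ± 0.26 with a range of -0.49 to 0.55 (adjusted p 0.93). Epcam was at 46.2 to 87.8 CPM with saline and 39 to 72.9 CPM with OVA (log2 -0.18 ± 0.26, adjusted p 0.61). The endothelial references fell, Cdh5 by 1.59 ± 0.32 and Cldn5 by 0.80 ± 0.23 on the log2 scale (adjusted p 0.0015 and 0.013). Saline levels of Cdh5 were 926 to 1281 CPM and OVA levels 254 to 527 CPM.

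**Figure D2:**
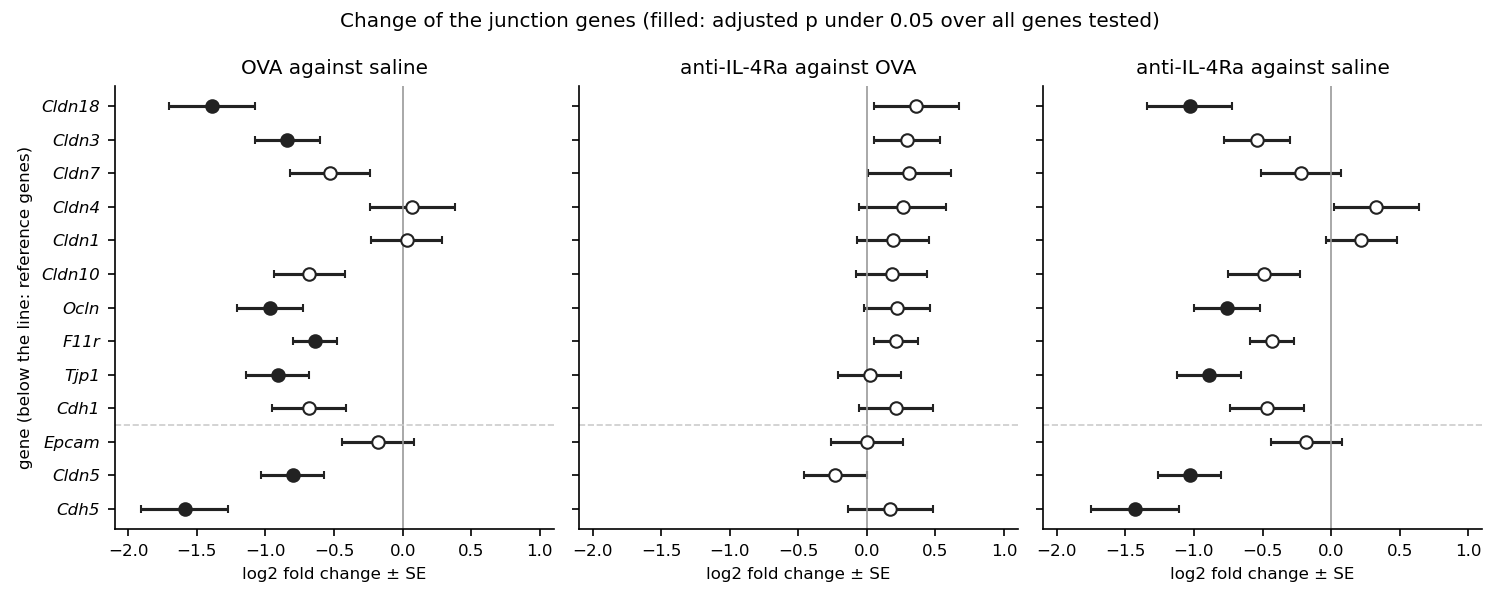
Log2 fold change with its SE for the 10 genes and the references Epcam, Cldn5 and Cdh5 in the 3 comparisons. Filled points passed an adjusted p of 0.05 over all genes tested. There are 5 filled junction genes for OVA against saline, 0 for anti-IL-4Ra against OVA and 3 for anti-IL-4Ra against saline.

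The promoters of the genes the comparison turns on are printed here as RefSeq gives them on mouse build GRCm38.p6, from 250 bases before to 50 after the start site, on the gene's own strand. Ocln and Cldn18 are shown as genes that fell without overlap. Cldn3 and Cldn4 are shown because they are neighbours on chromosome 5, with 0 annotated genes between them, of which Cldn3 was called and Cldn4 was not. Capitals mark the E-box CAGGTG on either strand, which Snail and Zeb repressors bind, and in Ocln also the letters of a STAT6-type element, TTC and GAA with 4 bases between. The Cldn18 sequence is from the upstream of its 2 start sites and holds no match.
Ocln, chr13:100552449-100552748, minus strand: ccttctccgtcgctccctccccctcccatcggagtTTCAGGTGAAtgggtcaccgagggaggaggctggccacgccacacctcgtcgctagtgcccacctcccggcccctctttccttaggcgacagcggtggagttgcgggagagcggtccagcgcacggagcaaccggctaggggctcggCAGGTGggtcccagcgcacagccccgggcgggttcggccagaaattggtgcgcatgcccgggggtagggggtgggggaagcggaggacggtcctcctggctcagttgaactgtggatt
Cldn3, chr5:134985964-134986263, plus strand: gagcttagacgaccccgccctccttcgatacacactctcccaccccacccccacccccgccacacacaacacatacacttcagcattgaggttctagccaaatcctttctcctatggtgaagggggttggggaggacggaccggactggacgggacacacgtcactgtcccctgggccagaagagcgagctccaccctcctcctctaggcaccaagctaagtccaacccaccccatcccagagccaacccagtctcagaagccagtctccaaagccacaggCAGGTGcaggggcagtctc
Cldn4, chr5:134946885-134947184, minus strand: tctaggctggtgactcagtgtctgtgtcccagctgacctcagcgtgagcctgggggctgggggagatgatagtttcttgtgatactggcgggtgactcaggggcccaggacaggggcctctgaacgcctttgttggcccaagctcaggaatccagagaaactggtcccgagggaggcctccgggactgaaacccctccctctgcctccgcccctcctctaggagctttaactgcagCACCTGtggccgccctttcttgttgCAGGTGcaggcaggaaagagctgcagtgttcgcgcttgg
Cldn18, chr9:99717218-99717517, minus strand: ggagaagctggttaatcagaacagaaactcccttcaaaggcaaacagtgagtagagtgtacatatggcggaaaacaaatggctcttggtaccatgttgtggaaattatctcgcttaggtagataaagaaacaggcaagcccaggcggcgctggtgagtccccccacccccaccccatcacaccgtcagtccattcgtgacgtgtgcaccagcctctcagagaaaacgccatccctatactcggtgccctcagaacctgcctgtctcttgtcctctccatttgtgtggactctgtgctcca

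An E-box of this form was found in 6 of 13 promoters of the 9 genes in the table, belonging to Ocln, Cldn3, Cldn4, Cldn7 and F11r, and in 20.2% of all 32851 promoters of the same length. The 2 Ocln promoters overlap and share an E-box. By gene it was found in 5 of the 9, beside 6098 of 27025 genes. Cldn4 has an E-box at base -14 and another at 12 from its start site, and Cldn3 has 1 at base 32. The STAT6-type letters were in 2 overlapping Ocln promoters, where they enclose an E-box, and in 6.95% of all promoters. AACNGGTT, the Grainyhead-like motif, was in 0 of the 13 and in 2.09% of all promoters. E-boxes thus occurred in genes that fell (Ocln, Cldn3, F11r) and in genes that did not pass the test (Cldn4, Cldn7), and a match of letters is a description, not a binding site. The Cdh1 promoter was not used here.

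Ratios of 2 genes within a library do not depend on how libraries are scaled, so 6 of them were compared among the groups as log2 of counts plus 0.5. These were 18 exact two-sided permutation tests of 5 against 5, whose smallest possible p is 0.00794, with Benjamini-Hochberg adjustment over the 18. Cldn4 relative to Cldn18 was -7.60 ± 0.50 with saline (SD, n = 5) and -6.01 ± 0.81 with OVA. This ratio was higher by 1.59 with OVA (exact permutation p 0.00794, adjusted 0.0286). The log2 change in level was 0.07 for Cldn4 and -1.39 for Cldn18. With the Rn45s share as a covariate, described below, those changes were -0.42 ± 0.45 and -0.50 ± 0.30 (SE). Relative to Epcam, Cldn18 fell by 1.28, Cdh1 by 0.53 and Cldn7 by 0.39, each with an exact permutation p of 0.00794 (adjusted 0.0286) and no overlap between groups. Cdh1 to Epcam, for example, was 2.91, 2.74, 2.74, 2.67 and 2.86 with saline and 2.33, 2.06, 2.25, 2.48 and 2.15 with OVA. Cdh1 and Cldn7 therefore differed from saline as a ratio to Epcam, although neither was called on its own. Epcam is 1 reference, whose log2 change of -0.18 was smaller than the median of -0.37 over 7 pan-epithelial genes. With libraries scaled to those 7 genes, described below, neither Cdh1 nor Cldn7 was called. Without saline replicate 1, 3 or 5, where 4 against 5 libraries allow no exact p under 0.0159, 0 of the 6 ratios passed after adjustment (adjusted p 0.0571 for the 5 that passed with all libraries).

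Cldn3 to Cldn4, the neighbouring pair, was 4.22 ± 0.38 with saline and 3.19 ± 0.74 with OVA (n = 5 each, exact permutation p 0.0317, adjusted 0.0714). OVA library 3 at 4.29 lay inside the saline range of 3.80 to 4.57. Tjp1 to Cdh5 rose: it was -0.65 ± 0.16 with saline and 0.06 ± 0.25 with OVA (n = 5 each), with exact permutation p 0.00794 (adjusted 0.0286). Tjp1 thus fell less than the endothelial cadherin did.

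**Figure D3:**
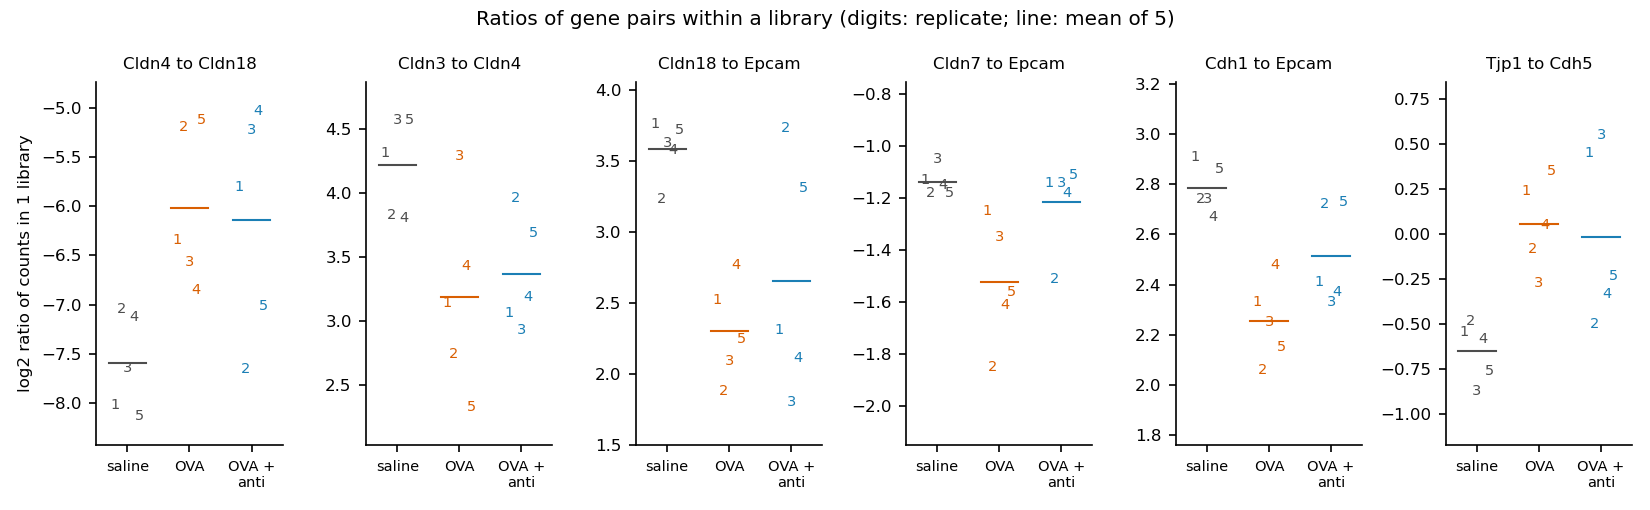
Log2 ratios of 6 gene pairs within each library, by group, with replicate numbers as digits and the mean of 5 as a line. Each panel has its own axis, which does not start at 0. Saline and OVA libraries are separate in every panel except Cldn3 to Cldn4, and in every panel the anti-IL-4Ra libraries reach into both the saline and the OVA range.

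Other genes of the pathway were read from lists. Of 17 other claudins, 8 were abundant enough to test and 2 had no counts in any library. Cldn2, which forms a sodium and water pore, was at 0.414, 1.12, 0.252, 0.218 and 0.489 CPM with saline and at 4.62, 2.07, 7.29, 4.58 and 2.56 CPM with OVA. All OVA libraries were above all saline libraries, and the gene rose by 3.03 ± 0.64 on the log2 scale (edgeR adjusted p 0.002) from a very low level. Cldn22 also rose (1.48 ± 0.53, adjusted p 0.038), with 0.916 to 3.65 CPM in saline and 1.64 to 12 CPM in OVA libraries. Cldn8, Cldn23, Cldn15 and the endothelial Cldn5 fell, led by Cldn8 at -1.69 ± 0.45 (adjusted p 0.0081).

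Among 13 other tight junction membrane genes 4 fell and 0 rose, with a median log2 change of -0.24. Esam, an adhesion molecule of endothelial cells and platelets, fell by 0.92 ± 0.20, Jam2, an adhesion molecule of endothelium, by 0.82 ± 0.29, and Marveld2, the tricellulin gene of the corners where cells meet, by 0.66 ± 0.14 (edgeR adjusted p 0.0028, 0.034 and 0.0018). Of 25 scaffold and polarity genes 15 fell and 0 rose (median -0.50). The leading changes were in Amotl2, an angiomotin family gene, and the polarity genes Pard6g and Pard6b, at -1.44 ± 0.19, -1.32 ± 0.21 and -1.28 ± 0.21 (edgeR adjusted p 7.6e-05, 0.00029 and 0.00044). Of 15 adherens junction genes 11 fell and 0 rose (median -0.65), led by Cdh5, the catenin-family gene Jup at -1.42 ± 0.23 and the nectin-3 gene Pvrl3 at -1.13 ± 0.32 (edgeR adjusted p 0.00044 and 0.013 for the last 2). The alpha-, beta- and p120-catenin genes that serve E-cadherin fell as well, Ctnna1 by 0.94 ± 0.21, Ctnnb1 by 0.46 ± 0.17 and Ctnnd1 by 0.65 ± 0.17, and these 3 were chosen after their values were seen.

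Desmosome and envelope genes went both ways, with 2 of 9 tested higher and 3 lower. The desmosomal cadherin Dsc2 rose from 2.5 ± 1.25 to 15 ± 7.69 CPM (log2 2.57 ± 0.52, edgeR adjusted p 0.0016), and its OVA and saline libraries did not overlap. Dsc3 was also called higher (5.64 ± 1.58, adjusted p 0.011), but its OVA libraries ran from 0.27 to 43.9 CPM and its saline libraries reached 0.64 CPM. The plakin genes Ppl and Evpl fell by 1.01 ± 0.20 and 0.95 ± 0.18, and the plakophilin gene Pkp2 by 0.56 ± 0.16.

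Of 6 tested repressors of E-cadherin 2 fell and 0 rose. Snai1, the Snail gene, was at 15.4, 13.1, 19.8, 13.9 and 14.4 CPM with saline and at 5, 4.8, 7.97, 6.7 and 5.85 CPM with OVA. The groups were separate, with a log2 change of -1.33 ± 0.22 (edgeR adjusted p 0.00039), and Zeb1 changed by -0.86 ± 0.20 (adjusted p 0.0039). Of 16 epithelial transcription and splicing regulators 4 fell (3 with RLE scaling), beside 17.8% of all genes called lower. They were led by the Grainyhead-like gene Grhl3 (-1.20 ± 0.35), the forkhead gene Foxa2 (-0.70 ± 0.20) and Ovol1 (-0.67 ± 0.21), with edgeR adjusted p of 0.015, 0.013 and 0.021. Grhl3 was scarce, at 0.903 to 1.26 CPM with saline and 0.205 to 0.923 CPM (3 to 9 counts per library) with OVA. Among 7 pan-epithelial genes only the splicing regulator Esrp2 was called (-0.39 ± 0.15, adjusted p 0.049), and the list median was -0.37. Esrp2 is also among the 4 regulators that fell, and with RLE scaling 0 pan-epithelial genes were called.

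Marker lists of the cells that carry these junctions moved beside them, and the endothelial list shares Cdh5, Cldn5 and Esam with the junction lists above. Called lower were 9 of 10 alveolar type 1, 8 of 11 alveolar type 2, 8 of 12 club cell and 13 of 14 endothelial markers, with medians of -1.28, -0.83, -1.50 and -1.03, and 1 alveolar type 2 and 1 club cell marker were called higher. Summed alveolar type 2 markers were 16211 to 22791 CPM with saline and 7828 to 15224 with OVA, and summed club cell markers 12077 to 28679 and 3770 to 11128. All 10 goblet cell genes were called higher, and their sum went from 12.3 to 287 CPM with saline to 3116 to 21595 CPM with OVA. Of 12 ciliated cell markers 1 was called lower (median 0.35). The part of these cell types in the change of the 10 junction genes was not tested.

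**Figure D4:**
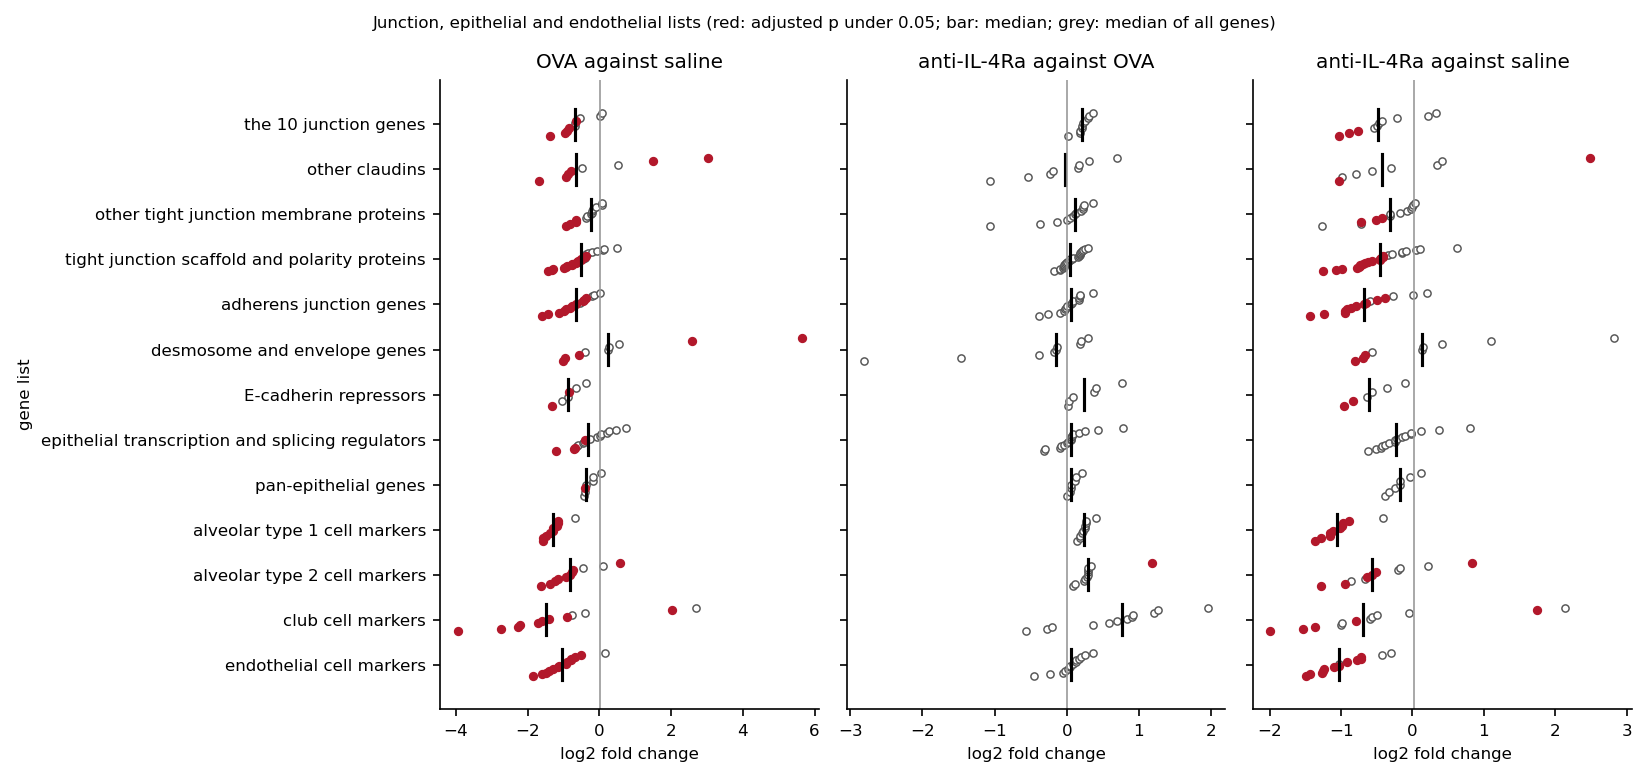
Log2 fold change of each tested gene in the junction lists and in epithelial and endothelial marker lists, for the 3 comparisons. Red points passed an adjusted p of 0.05, black bars are list medians and the grey line is the median of all genes. Points of the scaffold, adherens, alveolar type 1 and endothelial lists lie mostly left of the line in both comparisons with saline. The anti-IL-4Ra against OVA panel has 1 red point, Lyz2 of the alveolar type 2 list (928 ± 174 CPM with OVA, 2098 ± 675 with anti-IL-4Ra). The median of that list was 0.29.

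Rn45s shares of OVA and saline libraries did not overlap. With its logarithm as a covariate, 0 of the 10 genes were called between OVA and saline, against 1.67% of all genes called lower. The log2 change was then -0.50 ± 0.30 for Cldn18, -0.33 ± 0.26 for Ocln, -0.34 ± 0.25 for Tjp1, -0.58 ± 0.34 for Cldn3 and -0.34 ± 0.21 for F11r (edgeR adjusted p 0.29 to 0.45), and that of Cldn4 turned to -0.42 ± 0.45. Among OVA libraries, the highest levels of Cldn18, Tjp1 and Ocln (429, 533 and 48.1 CPM) were in library 4, which had the lowest share at 4.31%. The lowest (149, 240 and 27 CPM) were in library 2 at 8.47%, and library 5, with the highest share at 12.4%, held 197, 382 and 34.9 CPM. Within the saline group, library 1 had the highest share (2.88%) and the highest Tjp1 (801 CPM). Its Cldn18 (670 CPM) and Ocln (67.5 CPM) lay inside the saline ranges of 553 to 822 and 58.7 to 91.9 CPM. In the same fit the other lists kept few calls: 0 of 8 other claudins (Cldn2 and Cldn22 included), 0 of 13 tight junction membrane genes, 2 of 25 scaffold genes (median -0.36), 0 of 15 adherens genes (median -0.40), 0 of 9 desmosome genes, 0 of 6 repressors and 0 of 16 epithelial regulators. Of the markers, 0 alveolar type 1, 1 alveolar type 2, 4 club cell and 1 endothelial marker were then called lower (medians -0.58, -0.30, -0.76 and -0.48), and 8 of 10 goblet cell genes higher. With no overlap in the share, the allergen and this measure cannot be told apart.

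**Figure D5:**
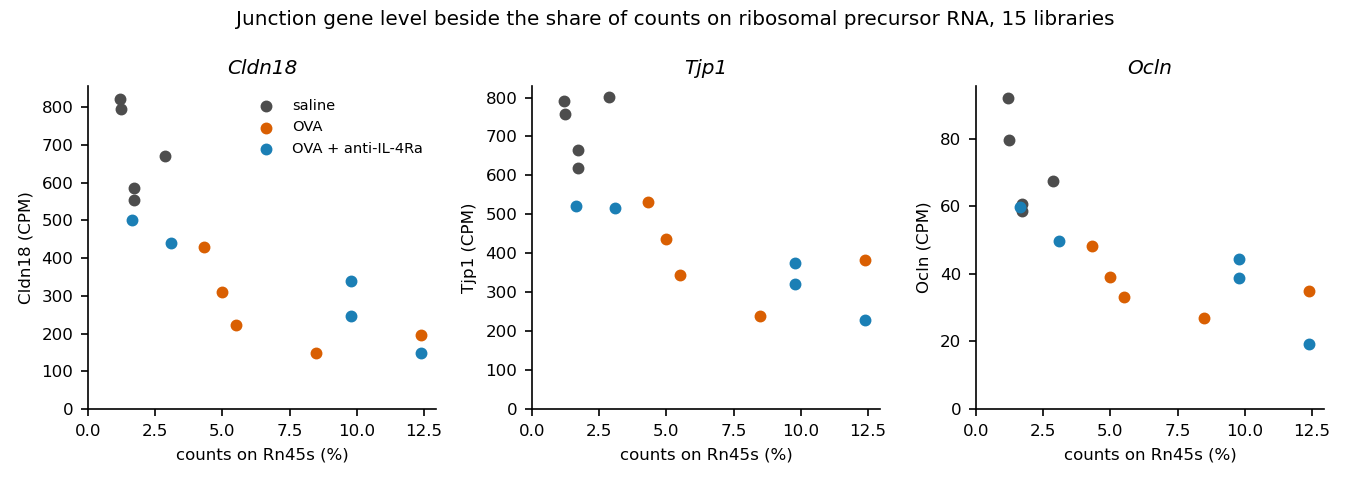
Level of Cldn18, Tjp1 and Ocln in CPM against the percent of counts on Rn45s in the 15 libraries, coloured by group, all axes from 0. Saline libraries lie at 1.19 to 2.88%, above all others for Cldn18 and Tjp1 and overlapping anti-IL-4Ra library 5 for Ocln, and anti-IL-4Ra libraries range from 1.65 to 12.4%.

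When libraries were instead scaled to the 7 pan-epithelial genes, which moved the median log2 change of all genes from 0.02 to 0.34, 3 of the 10 genes were called lower in OVA lungs, against 4.38% of all genes. These were Cldn18 (-1.14 ± 0.28, edgeR adjusted p 0.0059), Cldn3 (-0.60 ± 0.20, adjusted p 0.029) and Ocln (-0.68 ± 0.24, adjusted p 0.042). Tjp1 (-0.65 ± 0.26) and F11r (-0.37 ± 0.21) then had adjusted p of 0.063 and 0.2. Under that scaling 3274 genes were called higher and 697 lower, against 3069 and 2829 by TMM. Among the other lists, 2 claudins were then higher and 1 lower, 0 tight junction membrane genes were called, 6 scaffold genes were lower and 1 higher, and 5 adherens genes were lower. Desmosome genes had 3 higher and 2 lower, the repressors 1 lower, and the epithelial regulators 2 higher and 0 lower. Of the markers, 9 alveolar type 1, 3 alveolar type 2, 8 club cell and 6 endothelial markers were lower. Called higher were 1 alveolar type 2 marker, 2 club cell markers and 10 goblet cell genes, and ciliated markers had 4 higher and 1 lower.

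Anti-IL-4Ra against OVA. None of the 10 junction genes was called between the groups given OVA, in edgeR (0 at an unadjusted p under 0.05, every adjusted p 1) or in DESeq2 (0). All 10 means were higher with anti-IL-4Ra, by 0.02 (Tjp1) to 0.36 (Cldn18) on the log2 scale, each by less than 2 SE, and Tjp1 turned to -0.04 with pan-epithelial scaling and -0.08 with the Rn45s covariate. Across all genes 0.138% were called higher and 0.163% lower. Junction lists of other genes also held 0 calls.

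Cldn18 was at 339, 439, 247, 149 and 502 CPM in anti-IL-4Ra libraries 1 to 5. Libraries 2 and 5 exceeded every OVA library, library 4 was level with the lowest OVA library, and none reached the saline range. The log2 change of 0.36 ± 0.31 spans -0.26 to 0.98 at 2 SE on either side. Ocln was at 44.5, 49.6, 38.9, 19.2 and 59.7 CPM (0.22 ± 0.24, from -0.26 to 0.70), and Tjp1 at 375, 516, 322, 228 and 521 CPM (0.02 ± 0.23, from -0.44 to 0.48). In both genes libraries 2 and 5 were again highest and library 4 lowest. Cldn3 was at 50.7, 33.7, 50.6, 41.3 and 50 CPM (0.29 ± 0.24, from -0.19 to 0.77), and F11r at 133, 158, 111, 93 and 129 CPM (0.21 ± 0.16, from -0.11 to 0.53).

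Several claudins ranked the treated animals differently. Cldn3 and Cldn7 were highest in libraries 1 and 3 and lowest in library 2. Cldn7 was at 30.8, 11.6, 32, 15.1 and 23.3 CPM and Cldn4 at 6.03, 2.13, 6.59, 4.51 and 3.86 CPM, the latter with the same highest and lowest libraries. Cldn10 at 16, 9.37, 19.5, 10.7 and 16.4 CPM was also lowest in library 2. Cdh1 was at 362, 218, 356, 178 and 336 CPM, lowest in library 4, as was Cldn1 at 14.4, 13.6, 12.3, 7 and 14.4 CPM. Libraries 2 and 5, high for Cldn18, Ocln and Tjp1, had the lowest Rn45s shares of the group, 3.1 and 1.65% against 9.79 to 12.4%, and the highest Cdh5, 728 and 609 CPM against 220 to 287 CPM. The part of either measure in these levels was not tested.

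None of the 6 ratios differed between the OVA groups after adjustment. Cldn7 to Epcam came nearest: it was -1.22 ± 0.16 with anti-IL-4Ra and -1.52 ± 0.23 with OVA, a difference of 0.30 (n = 5 each, exact permutation p 0.0556, adjusted 0.0909). It was -1.14, -1.51, -1.14, -1.18 and -1.11 in anti-IL-4Ra libraries 1 to 5, so 4 of 5 lay above every OVA library and within the saline range of -1.18 to -1.05. Cdh1 to Epcam differed by 0.26 (exact permutation p 0.0635, adjusted 0.0952). Cldn2 was at 4.05, 0.689, 7.19, 0.875 and 1.82 CPM and did not pass the test against OVA (-0.54 ± 0.57, edgeR adjusted p 1). Dsc2, at 5.44 ± 3.53 CPM, had a log2 difference of -1.47 ± 0.50 from OVA (adjusted p 0.51).

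Anti-IL-4Ra against saline. With the antibody, 3 of the 10 genes were still lower than in saline lungs, the same saline libraries serving as in the comparison with OVA. They were Tjp1 (-0.89 ± 0.23, edgeR adjusted p 0.01), Cldn18 (-1.03 ± 0.31, 0.023) and Ocln (-0.76 ± 0.24, 0.028). Among all genes 12.7% were called lower and 13.9% higher, and the median over the 10 genes was -0.48. F11r (-0.43 ± 0.16, adjusted p 0.054) and Cldn3 (-0.54 ± 0.24, 0.098) did not pass, nor did Cldn10, Cdh1, Cldn7, Cldn1 or Cldn4, whose changes ran from -0.49 to 0.33. Whether the antibody changed the response of F11r and Cldn3 is the comparison between the OVA groups, in which neither was called.

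Cldn3, Cldn18 and Tjp1 had all treated libraries below all saline libraries, as did 10.3% of all genes. For Cldn3 the gap was small, 50.7 against 51 CPM. Ocln overlapped, since treated library 5 at 59.7 CPM lay above the lowest saline library at 58.7 CPM. Calls here rested on few animals: Cldn18 was lost without saline replicate 5 or anti-IL-4Ra replicate 3 (edgeR adjusted p 0.054 and 0.063), and Ocln without saline replicate 2 or 5 or anti-IL-4Ra replicate 1 or 3 (0.05 to 0.066). With the Rn45s share as a covariate or with pan-epithelial scaling, 0 of the 10 were called, against 0.321% and 1.59% of all genes called lower.

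Of the other lists, 16 of 25 scaffold and polarity genes, 11 of 15 adherens junction genes and 3 of 13 tight junction membrane genes were lower than in saline lungs, and 0 were higher. With the Rn45s covariate 1, 0 and 0 of them were lower, and with pan-epithelial scaling 3, 2 and 0, with 1 scaffold gene higher. Amotl2 (-1.25 ± 0.19), Pard6g (-1.07 ± 0.20) and Pard6b (-0.99 ± 0.21) led the scaffold genes, and Cdh5 (-1.43 ± 0.32), Jup (-1.24 ± 0.23) and Pvrl3 (-0.95 ± 0.32) the adherens genes. Cldn2 was higher than in saline lungs (2.49 ± 0.64, edgeR adjusted p 0.01) and Cldn5 lower (-1.03 ± 0.23, adjusted p 0.0051). Snai1 and Zeb1 were lower by 0.96 ± 0.21 and 0.83 ± 0.20 on the log2 scale, while 0 of 16 epithelial regulators were called. With the covariate 0 other claudins and 0 repressors were called, and with pan-epithelial scaling 1 claudin was higher and 0 repressors were called. Of the ratios, Tjp1 to Cdh5 alone passed, higher by 0.64 than with saline (-0.01 ± 0.48 against -0.65 ± 0.16, n = 5 each, exact permutation p 0.0159, adjusted 0.0476). Among fits that left out 1 animal, that ratio passed when saline replicate 2 or anti-IL-4Ra replicate 2 was left out and in no other. In the absence of anti-IL-4Ra replicate 2, the ratios past the threshold numbered 5.

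The 10 genes did not vary as a single block across the 15 libraries. Likeness was measured as the root mean square difference in log2 CPM (2 counts added) after each gene's mean was taken off, so 0 means identical profiles. Ocln and Tjp1 were the closest pair at 0.18, followed by Cldn10 with Cdh1 at 0.21 and Cldn7 with Cdh1 at 0.22. Cldn4 and Cldn18 were the farthest apart at 1.04. Saline library 2 had the highest saline level of 8 of the 10 genes, OVA library 2 the lowest OVA level of 6, and anti-IL-4Ra library 4 the lowest treated level of 6.

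Outside the 10 genes, Ocln was most like Exph5, at 0.10 against its own spread of 0.58 about its mean. Tjp1 was most like Tead1, a transcription factor of the Hippo pathway, Vcl, the vinculin gene of adherens junctions, and Gpr126, at 0.10 to 0.11. F11r was most like the myosin gene Myo1d at 0.10, Cldn3 like Gpr56, Por and the epithelial transcription factor Klf5 at 0.15, and Cldn18 like Emp1, Sema3a and Akr1c14 at 0.17. The rarer claudins had looser matches, such as Mycl for Cldn4 at 0.25 and C77370 and Pla2g4a for Cldn1 at 0.24. These distances describe 15 libraries that share the group differences.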

How the data were processed

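Strand-specific RNA-seq libraries were made from snap-frozen whole lungs, per the labels' protocols, which name both ribosomal RNA depletion and oligo-dT purification. The authors deposited expected counts per gene symbol without normalization, 1 column per animal. Per the submitters' processing notes the tools were Bowtie2 2.1.0 and RSEM 1.2.15 and the build the human hg38, although 22542 of 24054 symbols are current mouse symbols, so values were read as mouse genes. RSEM shares reads that fit several genes by an estimate.

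Expected counts were rounded and kept by filterByExpr (15905 genes), scaled by TMM, and fitted as 1 quasi-likelihood model of all 15 libraries in edgeR 4.0.16 (R 4.3.3), with Benjamini-Hochberg adjustment over all genes. SEs come from the F statistic. The scripts were tested on simulated data. Exact permutation tests used scipy 1.17.1. Levels per kb used GENCODE exon unions, which may differ from the annotation counted. The ranges of 2 SE include the spread between animals, while the floor of 3 counts covers counting error only. Every replicate pair differed beyond sampling noise. Replicates are labelled biological.

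Alternatives were RLE scaling, DESeq2 1.42.0, no filter, fits of 2 groups, a replicate block, the Rn45s share as a covariate, pan-epithelial scaling, 2 in place of 0.5 added in ratios, and leaving out each replicate. Named genes were the 10 junction genes, Epcam, Cdh5 and Cldn5, up to 3 called genes per list, direction and comparison with the largest change, and the 3 most similar profiles per junction gene. The 10 genes and the lists were chosen with earlier results of these data known. Promoters were read from a RefSeq table (GRCm38.p6).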

Additional observations from a re-analysis of the deposited data

Results flagged for a closer look

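Of 48 groups of 5 libraries checked for a library far from the others (10 genes and 6 ratios in 3 groups), 2 were singled out, and chance gives about 1 in 20. Cldn1 was at 7 CPM in anti-IL-4Ra library 4, where the other 4 treated libraries lay at 12.3 to 14.4 CPM. The log2 ratio of Cldn7 to Epcam was -1.51 in anti-IL-4Ra library 2, against -1.18 to -1.11 in the other 4 treated libraries. Without that library 1 of the 6 ratios, the same Cldn7 to Epcam, passed the adjusted threshold between the OVA groups, where 0 did with it. The library was singled out by its value of this very ratio, so no conclusion is drawn from that pass.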

How the results depend on the processing

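The 5 genes called lower with OVA kept that call under RLE scaling, DESeq2, no filter, a fit of the 2 groups, the replicate block and every left-out replicate. DESeq2 also called Cldn10 and Cdh1 there (adjusted p 0.037 and 0.038) and F11r between anti-IL-4Ra and saline (0.044). With the Rn45s covariate 0 of the 10 were called in either comparison with saline, and genes called numbered 752 (OVA) and 373 (anti-IL-4Ra). With pan-epithelial scaling 3 and 0 of the 10 were called, and 24 genes passed between the OVA groups and 1662 between anti-IL-4Ra and saline. Between the OVA groups DESeq2 called 132 genes and the replicate block 26, against 48. Between anti-IL-4Ra and saline 5 of the 10 passed in the fit of only these 2 groups (Cldn3 and F11r were added) and 1, Tjp1, with the replicate block. Replicate numbers did not pair the animals (correlations of same-numbered deviations from -0.546 to 0.347). Leaving out 1 replicate gave 4776 to 6396, 32 to 61 and 2844 to 4679 genes called and 5 to 8, 0 to 0 and 1 to 4 of the 10, for OVA against saline, anti-IL-4Ra against OVA and anti-IL-4Ra against saline. The same settings gave 0 to 6, 0 to 1 and 0 to 5 of 6 ratios past the threshold, with a smallest possible exact p of 0.0159. The call of 8 came without OVA replicate 3 and those of 1 without saline replicate 5 or anti-IL-4Ra replicate 3. No called result changed sign, whereas uncalled changes near 0 did: leaving out 1 replicate gave a range of -0.18 to 0.19 for Cldn1 and -0.10 to 0.29 for Cldn4 (OVA against saline), and, for anti-IL-4Ra against OVA, -0.11 to 0.18 for Tjp1 and -0.41 to 0.24 for the ratio of Cldn4 to Cldn18. The causes were not tested. Among the 10 genes, Cldn4 had the fewest counts.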
